A study of Saccharomyces cerevisiae with 9 samples.

Results

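Antifoam agents are surface-active additives that industrial ethanol plants add to keep fermenting vessels from foaming over. Gene expression with either of 2 such agents was compared with expression without them in Saccharomyces cerevisiae CAT-1, a strain used in Brazilian fuel ethanol production. The antifoam side held 6 RNA-seq libraries, Ind_B1 to Ind_B3 from cells given the agent labelled Ind_B and Ind_Z1 to Ind_Z3 from cells given the agent labelled Ind_Z. The control side held 3 libraries labelled control, whose columns are named control1, control12 and control13. These were all 9 of the 9 libraries of the series. All groups shared the strain, a medium based on sugar cane molasses, 5 consecutive fed-batch fermentations in which the cells were recycled with an acid treatment in between, and sampling at hour 4 of the last one. The labels do not give what the agents are made of, their doses, or whether the 3 libraries of a group came from separate vessels. P-values therefore measure the spread between these libraries, which may be technical.

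The yeast plasma membrane is rich in ergosterol, the fungal counterpart of cholesterol, which is made from acetyl-CoA through mevalonate, squalene and lanosterol. Upc2 and Ecm22 are transcription factors that sense sterol and switch on ergosterol genes when it is low. Unsaturated fatty acids come from the desaturase Ole1, whose gene is driven by the membrane-bound regulators Mga2 and Spt23. Misfolded cytosolic protein activates Hsf1, which induces chaperone genes, while Msn2 and Msn4 answer many other stresses through the stress response element CCCCT. Glucose transporters of the Hxt family are each switched on at a different range of sugar concentration.

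Each antifoam was given the same weight, so that the pooled change was the average of the Ind_B and the Ind_Z change from control. It is given as log2 fold change ± its standard error (SE), from edgeR's quasi-likelihood test on the counts of all 9 libraries, and a gene was called to have risen or fallen at a Benjamini-Hochberg adjusted p under 0.05. Of 6137 genes tested, 78 rose and 35 fell, together 113 or 1.84% of the genes, with rises making up 1.27% and falls 0.57%. The 78 rises ranged from 0.44 to 3.14 with a median of 0.89, and the 35 falls from -0.45 to -1.72 with a median of -1.10. At an unadjusted p under 0.05 there were 1016 genes (16.6%), 538 higher (8.77%) and 478 lower (7.79%). The calls lay close to the threshold, with adjusted p from 0.0173 to 0.0490 in edgeR's test. In bulk RNA, a change in every cell and a change in the share of cells in one state cannot be told apart.

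All 113 called genes had the same sign with Ind_B and with Ind_Z, 78 of them higher with both and 35 lower with both. Of all 6137 genes tested, 1700 were higher with both and 1870 lower with both. The genes were called on the average of the 2 changes, and the comparisons share the 3 control libraries. These signs are therefore a description, as are the counts among the 113 genes that follow. Of the 113 genes, 107 had an unadjusted p under 0.05 with each antifoam taken alone. All 6 antifoam libraries lay above all 3 controls for 73 of the 78 risers, against 4.94% of all genes tested, and below them for 33 of the 35 fallers, against 2.92%. The other 7 overlapped. A stricter test that asks each antifoam to pass by itself called 0 genes, or 0% (edgeR, lowest adjusted p 0.129), with 385 genes (6.27%) at an unadjusted p under 0.05, 228 higher (3.72%) and 157 lower (2.56%). Taken alone against the same controls, Ind_B gave 9 calls (0.147%) and Ind_Z 131 (2.13%). On that stricter test DESeq2 called 55 genes and limma-voom 4.

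**Figure D1:**
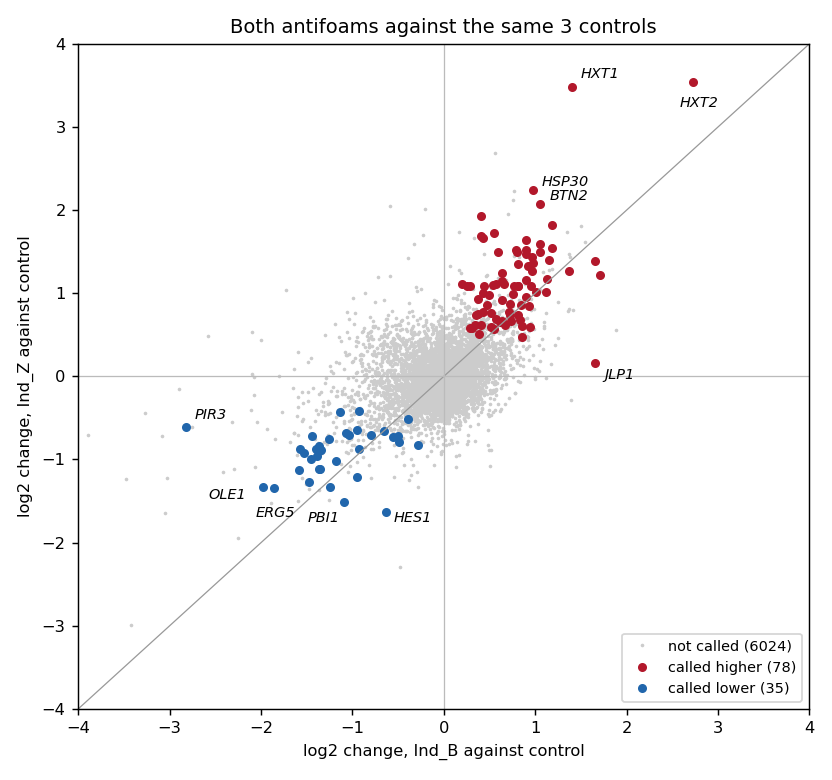
Each point is 1 of 6137 genes tested, at its log2 fold change with Ind_B against control (horizontal axis) and with Ind_Z against control (vertical axis); colours mark the 78 genes that rose, the 35 that fell and the 6024 not called in the pooled comparison. All 113 called genes lie on the upper right or the lower left, and 2 genes lie outside the plotted range of 4 in either direction.

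The risers and the fallers differed in which antifoam gave the larger estimate. Among the 78 risers, 65 had the larger rise with Ind_Z and 13 with Ind_B. Among the 35 fallers, 25 had the larger fall with Ind_B and 10 with Ind_Z. The difference between the antifoams itself passed the test for 8 of the 113 genes, where 26 of all genes tested did (0.424%).

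The libraries held 5900571 to 18245935 counts. Replicates did not match within counting error in any group, so none was merged. Control13 stood apart from the other controls, with Spearman correlations across genes of 0.956 and 0.954 against 0.995 between control1 and control12, and its ribosomal protein genes had a median log2 level 0.99 above theirs. Its correlations were higher with Ind_Z1 to Ind_Z3, at 0.9673, 0.9671 and 0.9648. With Ind_B1 to Ind_B3 they were lower, at 0.9359, 0.9199 and 0.9355. The cause was not tested. Without control13, 186 of 6178 genes were called (3.01%), 138 higher (2.23%) and 48 lower (0.777%). Of the 113 genes, 104 were among these 186, and all 113 kept their sign. Of the 186, 173 moved the same way with both antifoams. Control12 was the control nearest to the antifoam libraries for 62 of the 78 risers and 31 of the 35 fallers, while the farthest was control1 for 41 risers and 6 fallers and control13 for 36 risers and 29 fallers. Nearest means the highest control for a riser and the lowest for a faller. Over all 6137 genes tested, control12 was the highest control for 1797 and the lowest for 1627, and control13 for 2616 and 2856.

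The number of calls depended on single libraries. Leaving out control1 gave 0 calls by edgeR, with 853 genes at an unadjusted p under 0.05. Leaving out Ind_B1 gave 2 calls, and leaving out Ind_Z2 or Ind_Z3 gave 1. The count was 325 without control12, 92 without Ind_B3, 47 without Ind_Z1 and 46 without Ind_B2. All 113 genes kept their sign in all 9 of these fits. The genes were called on these same libraries and each fit leaves out only 1, so the kept signs are a description. A called gene was called in a median of 3 of the 9, and 31 genes were called in at least 5. DESeq2 called 391 genes and limma-voom with quality weights 813, each including all 113.

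**Figure D2:**
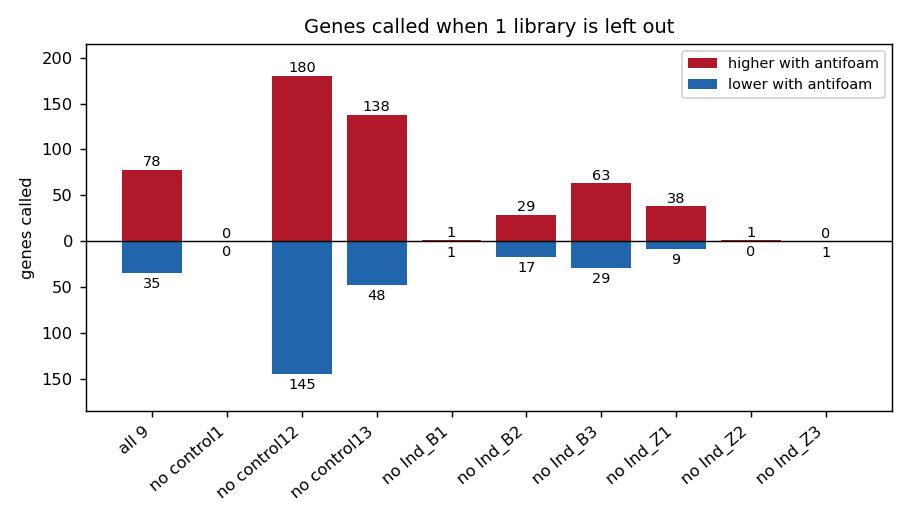
Bars give the number of genes called higher and called lower in the pooled comparison with all 9 libraries and with each library left out in turn, counted by edgeR's quasi-likelihood test at an adjusted p under 0.05. The total of 113 goes to 325 without control12 and to 0 without control1.

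Ergosterol genes formed the largest group among the fallers. All 26 genes of the list for ergosterol synthesis had a negative pooled estimate, 25 of them negative with each antifoam, and 11 fell while 0 rose. Of all 6137 genes tested, 3298 had a negative estimate, 1870 were negative with each antifoam and 0.57% fell. The median change of the list was -0.80, against -0.02 for all genes. It was -0.98 with Ind_B, -0.59 with Ind_Z, and -0.59 without control13, where 10 members fell. The number that fell was 21 without control12, 7 without Ind_B3, 4 without Ind_B2, 3 without Ind_Z1, and 0 without control1, Ind_B1, Ind_Z2 or Ind_Z3. Control12 was the control nearest to the antifoam libraries for 25 of the 26 genes and control13 the farthest for 25.

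The members that fell act early, in the middle and late in the pathway. Values of a gene are listed as CPM, the counts scaled to a common library size, in the order control1, control12 and control13, then replicates 1 to 3 of each antifoam. ERG5, the sterol desaturase of a late step, was at 1146, 764 and 1639.5 CPM in the controls, 225, 356 and 394 with Ind_B and 443, 501 and 459.8 with Ind_Z. Every antifoam library was below every control. The pooled change of ERG5 was -1.60 ± 0.23, or 3.03-fold lower (edgeR adjusted p = 0.0217). CYB5, a cytochrome that passes electrons to sterol and fatty acid enzymes, was at 170.5, 101 and 201 CPM in the controls, 48.7, 53.0 and 55.3 with Ind_B and 67.2, 74.3 and 74.2 with Ind_Z. It fell by 1.36 ± 0.17 with no overlap between the sides. MVD1, which makes isopentenyl pyrophosphate from mevalonate pyrophosphate, was at 235, 154 and 297 CPM in the controls, 79.8, 83.3 and 102 with Ind_B and 94.6, 118 and 103 with Ind_Z, a change of -1.24 ± 0.18, again without overlap.

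ERG11, the lanosterol demethylase that azole antifungals inhibit, was at 2778, 1897 and 3401 CPM in the controls, 737, 1042 and 1280.4 with Ind_B and 1417, 1523 and 1468 with Ind_Z. Its change was -1.14 ± 0.21 (edgeR adjusted p = 0.0314), and the lowest control, control12, was still above all 6 antifoam libraries. The other members that fell were ERG10, the thiolase of the first step, at -1.23, HMG1, the main HMG-CoA reductase, at -1.005, ERG25, the methyl oxidase, at -1.08, ERG6, the sterol methyltransferase, at -1.12, ERG3, another desaturase, at -1.10, ERG28, a scaffold of the pathway, at -0.90, and ERG2, the sterol isomerase, at -0.88. ERG10 was the 1 member of these whose libraries overlapped between the sides. Among the 15 members not called, the estimates ran from -0.84 for the squalene epoxidase gene ERG1 (adjusted p = 0.0664 by edgeR) to -0.036 for ERG4, the reductase of the last step. HMG2, the second HMG-CoA reductase gene, was at -0.066.

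**Figure D3:**
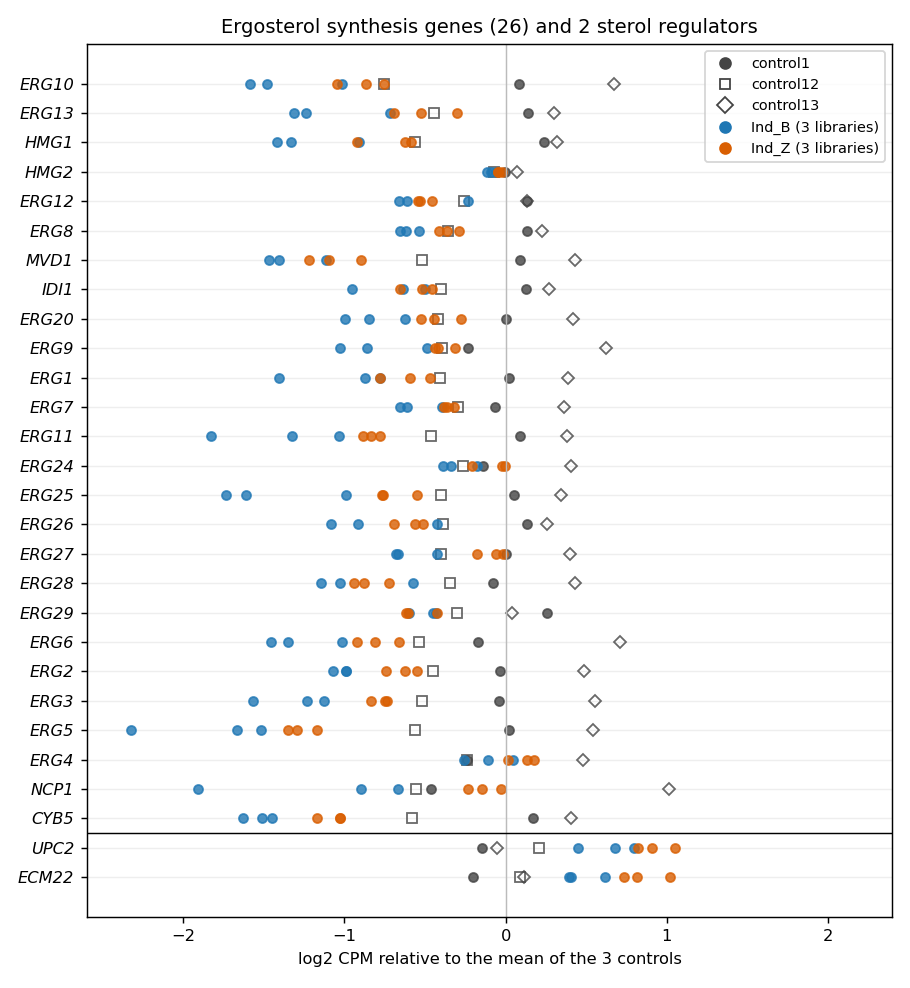
Points give the log2 level of each of the 26 genes for ergosterol synthesis in the 9 libraries. Levels are relative to the mean of the control libraries and coloured by group. For the genes that fell, other than ERG10, all antifoam points lie on the low side of the controls; control12 is the control nearest to them for 25 genes.

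In contrast to the enzyme genes, 3 regulators of sterol genes rose. UPC2 was at 142, 182 and 152 CPM in the controls, 253, 274 and 215.2 with Ind_B and 278, 296 and 326 with Ind_Z, all antifoam libraries above all controls. Its change was 0.78 ± 0.13 (edgeR adjusted p = 0.0257). ECM22 was at 29.4, 36.0 and 36.7 CPM in the controls, 52.1, 45.0 and 44.7 with Ind_B and 56.4, 68.8 and 59.8 with Ind_Z, again without overlap, with a change of 0.67 ± 0.12. SUT2, a regulator linked to sterol uptake, rose by 0.64 ± 0.14, and was the third of the 3 risers in a list of 23 genes for sterol regulation and transport. That list also held 2 fallers, where 1.27% of all genes tested rose and 0.57% fell. HES1, an oxysterol-binding protein that carries lipids between membranes, was at 34.2, 27.0 and 31.1 CPM in the controls, 16.5, 23.6 and 19.8 with Ind_B and 11.3, 8.84 and 9.36 with Ind_Z. Every antifoam library was below every control. Its fall was larger with Ind_Z (-1.63) than with Ind_B (-0.63), a difference that passed the test (edgeR adjusted p = 0.0499). YEH1, a steryl ester hydrolase, changed by -0.87 ± 0.17. The median of the list was 0.051, and 3 rises and 2 falls were also called without control13.

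The sterol regulatory element TCGTATA, to which Upc2 and Ecm22 bind, was searched on both strands from 250 bases before to 50 after each annotated gene start. The windows were cut from the RefSeq genome of assembly R64, which is not the CAT-1 genome. It was present in 4.15% of the 6430 promoters, in 3 of the 26 ergosterol genes (ERG2, ERG8 and ERG13), in 5.71% of the 35 fallers and in 5.19% of 77 risers. The promoter of ERG2 (chrXIII:667287-667586 on the plus strand) is printed 5′ to 3′ to show the element, in capitals, 185 bases before the start.
ERG2: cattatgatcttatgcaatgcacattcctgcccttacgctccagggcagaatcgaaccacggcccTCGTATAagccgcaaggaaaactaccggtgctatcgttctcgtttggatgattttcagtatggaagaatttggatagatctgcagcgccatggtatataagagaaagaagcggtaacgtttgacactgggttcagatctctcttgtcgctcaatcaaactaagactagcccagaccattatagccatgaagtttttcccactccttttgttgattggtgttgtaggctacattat

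Genes that make and activate fatty acids were the second group of fallers. In the list of 19 genes for fatty acid synthesis and activation, 5 fell and 0 rose, against 0.57% and 1.27% of all genes tested. Its median was -0.22, and 0.015 without control13, where 6 fell and 2 rose. OLE1, the only fatty acid desaturase of the yeast, was at 3708, 2147 and 5979.8 CPM in the controls, 1166, 1008 and 837 with Ind_B and 1349, 1881 and 1475 with Ind_Z. The controls spread widely but the lowest, control12, was above the highest antifoam library. The change was -1.65 ± 0.27, 3.14-fold lower (edgeR adjusted p = 0.0259), and -1.23 without control13. MGA2, whose product drives OLE1 transcription, changed by -0.66 ± 0.14, -0.66 with Ind_B and -0.66 with Ind_Z. Its partner SPT23 was at -0.22 (edgeR adjusted p = 0.307).

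FAA4, an acyl-CoA synthetase that activates long-chain fatty acids, was at 1315, 1068 and 1636 CPM in the controls, 522, 347 and 522 with Ind_B and 729, 820.1 and 574 with Ind_Z. It changed by -1.23 ± 0.19 without overlap. FAS2, a subunit of fatty acid synthase, was at 2467, 1617 and 3779 CPM in the controls, 981, 686 and 981 with Ind_B and 1372, 1528 and 1392 with Ind_Z, a change of -1.22 ± 0.24, and its lowest control was above its highest antifoam library. FAS1, the other subunit, had an estimate of -1.15 that missed the threshold (edgeR adjusted p = 0.0509). ACC1, the acetyl-CoA carboxylase that supplies the synthase, fell by 1.12 ± 0.24. The elongation genes ELO1, ELO2 and ELO3 lay between -0.006 and 0.19. No fatty acid member was called when control1, Ind_B1, Ind_Z2 or Ind_Z3 was left out, and 6 fell without control12.

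Among the risers, the 2 largest changes were in hexose transporters. HXT2, a high-affinity glucose transporter that is repressed at high glucose, was at 19.0, 27.9 and 19.3 CPM in the controls, 173, 102 and 167 with Ind_B and 120.1, 468 and 189 with Ind_Z. The lowest antifoam library was above the highest control, and Ind_Z2 was the highest of all. HXT2 rose by 3.14 ± 0.44, 8.80-fold (edgeR adjusted p = 0.0217), with 2.73 for Ind_B and 3.54 for Ind_Z. HXT1, a low-affinity transporter induced at high glucose, was at 25.9, 32.0 and 20.5 CPM in the controls, 102, 51.0 and 55.8 with Ind_B and 147, 432 and 308 with Ind_Z. It rose by 2.44 ± 0.37, 5.44-fold, and its Ind_Z libraries were all above its Ind_B libraries. The difference between the antifoams was 2.08 ± 0.39 and missed the threshold (edgeR adjusted p = 0.0531).

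STD1, a glucose-signalling protein that acts with the Rgt1 repressor of HXT genes, rose by 0.73 ± 0.13, alike with Ind_B (0.73) and Ind_Z (0.73). The other 16 tested genes of hexose transport and sensing were not called. They ran from -1.39 for HXT4 (edgeR adjusted p = 0.0882), for which every antifoam library was below every control, to 0.87 for HXT11. HXT3 was at 0.20 and the sensor gene SNF3 at 0.13. Without control13 the same number of members rose, 3. The share of all genes tested that rose was 1.27% with control13 and 2.23% without it. HXT1 is the only one of the 3 largest risers with a searched motif, CCCCT in capitals 157 bases before its start (chrVIII:292576-292875 on the minus strand), in this 5′ to 3′ sequence.
HXT1: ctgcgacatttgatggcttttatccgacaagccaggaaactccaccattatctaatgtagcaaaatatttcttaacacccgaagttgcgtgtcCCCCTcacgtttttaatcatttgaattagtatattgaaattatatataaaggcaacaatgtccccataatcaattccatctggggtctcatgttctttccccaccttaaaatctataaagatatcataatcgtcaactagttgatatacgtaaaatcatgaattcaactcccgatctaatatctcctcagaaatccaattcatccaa

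Among heat shock genes, the calls were all rises. In the list of 28 genes, 4 rose and 0 fell, against 1.27% and 0.57% of all genes tested. A positive estimate was found for 24 of the 28, where 2839 of all 6137 genes had one. The median was 0.44, 0.25 with Ind_B and 0.69 with Ind_Z, and 0.39 without control13, with 4 called. The number that rose was 11 without control12, 4 without Ind_B3, 3 without Ind_Z1, 1 without Ind_B2, and 0 without control1, Ind_B1, Ind_Z2 or Ind_Z3. Control12 was the highest of the controls for 24 of the 28 genes, and the lowest was control1 for 20 and control13 for 7.

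The 4 risers deal with misfolded cytosolic protein. BTN2, a factor that gathers misfolded proteins into deposits, was at 93.8, 225 and 141 CPM in the controls, 331, 334 and 289 with Ind_B and 549, 707 and 681 with Ind_Z. Its control12 value was the highest control yet below all antifoam libraries, and the change was 1.56 ± 0.25, 2.96-fold (edgeR adjusted p = 0.0253). CUR1, the paralog of BTN2, was at 32.1, 58.1 and 28.7 CPM in the controls, 80.1, 78.2 and 75.3 with Ind_B and 96.5, 107 and 121 with Ind_Z, a rise of 1.20 ± 0.21. FES1, which releases nucleotide from Hsp70, was at 72.9, 149.95 and 98.7 CPM in the controls, 203, 226 and 169 with Ind_B and 254, 323 and 349 with Ind_Z, a rise of 1.21 ± 0.22. None of these had overlapping libraries. SSA4, the stress-induced cytosolic Hsp70, rose by 1.19 ± 0.23. APJ1, an Hsp40 cochaperone outside the list and named after its values were seen, rose by 1.16 ± 0.17.

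HSP104, the disaggregase, had an estimate of 0.89 (edgeR adjusted p = 0.0593) and SIS1, an essential Hsp40, of 0.73 (adjusted p = 0.0596 by edgeR). The estimates were 0.58 for HSP82, 0.32 for SSA1 and -0.11 for HSF1, the regulator itself. The mitochondrial chaperone genes SSC1 and HSP60 were at -0.20 and -0.11.

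The heat shock element core GAANNTTC was found on either strand in 11.9% of the 6430 promoters, in 12 of the 28 heat shock genes (42.9%), in 18 of 77 risers with a promoter (23.4%) and in 6 of 35 fallers (17.1%). CCCCT was in 21.1% of all promoters, 20.8% of the risers and 17.1% of the fallers. The sequences of CUR1 (chrXVI:843012-843311 on the plus strand) and FES1 (chrII:444644-444943 on the minus strand) hold the core in capitals, 188 and 171 bases before the start. FES1 also has AGGGG, the reverse complement of CCCCT, in capitals within its coding sequence. SSA4 (chrV:364339-364638 on the plus strand) has AGGGG and TCGTATA in capitals, 179 and 139 bases before its start, and no core in this window. They are shown because these genes are the called heat shock members that hold a searched motif, and each runs 5′ to 3′ along the gene's strand in assembly R64.
CUR1: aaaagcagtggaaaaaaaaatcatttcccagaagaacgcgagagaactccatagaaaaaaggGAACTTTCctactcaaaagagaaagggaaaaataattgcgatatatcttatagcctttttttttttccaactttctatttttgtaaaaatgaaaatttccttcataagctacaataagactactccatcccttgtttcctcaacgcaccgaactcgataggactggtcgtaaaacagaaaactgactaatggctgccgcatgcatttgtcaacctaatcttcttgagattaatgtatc
FES1: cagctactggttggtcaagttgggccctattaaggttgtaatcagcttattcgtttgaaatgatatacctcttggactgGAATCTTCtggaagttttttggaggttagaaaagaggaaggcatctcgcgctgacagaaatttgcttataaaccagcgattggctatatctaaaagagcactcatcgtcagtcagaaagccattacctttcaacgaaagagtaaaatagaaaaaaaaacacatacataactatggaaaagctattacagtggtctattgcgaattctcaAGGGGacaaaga
SSA4: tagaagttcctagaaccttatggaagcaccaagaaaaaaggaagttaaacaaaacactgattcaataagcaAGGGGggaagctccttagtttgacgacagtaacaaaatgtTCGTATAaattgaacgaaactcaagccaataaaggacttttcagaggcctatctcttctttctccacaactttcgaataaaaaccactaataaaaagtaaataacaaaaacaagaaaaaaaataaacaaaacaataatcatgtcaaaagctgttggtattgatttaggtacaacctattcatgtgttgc

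Genes for coping with weak acids included 3 risers out of 18, where 1.27% of all genes tested rose. HSP30, a small plasma membrane protein that restrains the proton pump Pma1, was at 692, 1051 and 916 CPM in the controls, 1790.4, 2207 and 1219.6 with Ind_B and 3064, 4390.4 and 5166 with Ind_Z. No library overlapped, and the change was 1.61 ± 0.26, 3.05-fold (edgeR adjusted p = 0.0257), 0.97 with Ind_B and 2.25 with Ind_Z. RSB1, an exporter-like membrane protein for sphingoid bases, was at 44.2, 53.9 and 42.3 CPM in the controls, 70.5, 71.1 and 63.7 with Ind_B and 81.6, 97.4 and 123 with Ind_Z, a rise of 0.82 ± 0.14. TPO2, a polyamine exporter, rose by 0.77 ± 0.17, but it has a near-identical copy and its reads may be shared. Its libraries overlapped between the sides, with control13 at 450 and Ind_B2 at 419 CPM. It was called in 1 of the 9 fits with 1 library left out. The list of 18 genes had a median of 0.35, and 0.44 without control13 with 3 called. PMA1 was at -0.026 and the regulators HAA1 and WAR1 at -0.022 and 0.11. NCE102, a membrane protein of eisosomes named after its values were seen, rose by 1.05 ± 0.19, 0.41 with Ind_B and 1.69 with Ind_Z. The NCE102 libraries overlapped too, with control13 at 63.6 and Ind_B2 at 62.7 CPM.

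**Figure D4:**
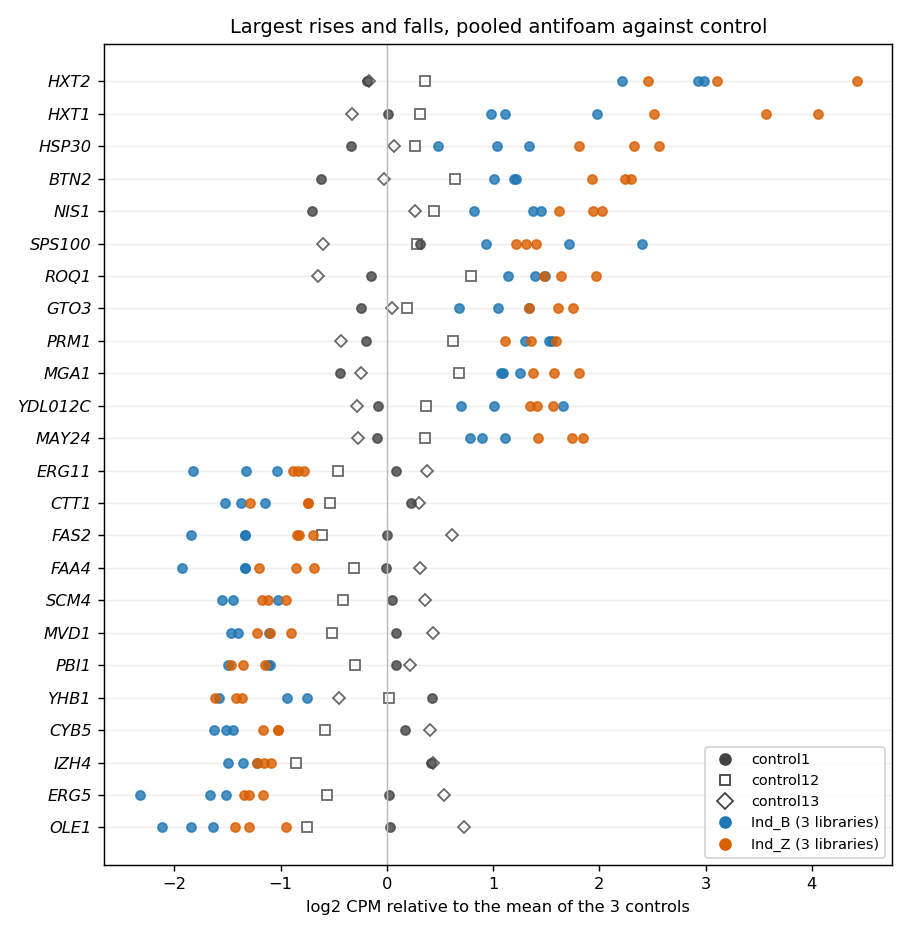
Points give the log2 level of the 12 largest rises and the 12 largest falls in each of the 9 libraries. Levels are relative to the mean of the 3 controls and coloured by group. By the rule for choosing them, the 6 antifoam points of every gene lie on one side of its 3 control points.

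The remaining large rises belonged to varied processes. NIS1, a bud neck protein, was at 14.6, 32.4 and 28.7 CPM in the controls, 65.5, 62.1 and 42.1 with Ind_B and 73.7, 92.3 and 97.5 with Ind_Z, a change of 1.499 ± 0.26. GTO3, an omega-class glutathione transferase, was at 8.01, 10.9 and 9.83 CPM in the controls, 24.2, 19.7 and 15.3 with Ind_B and 24.2, 29.3 and 32.5 with Ind_Z, a change of 1.32 ± 0.19. For both genes, every antifoam library was above every control. ROQ1, which redirects the ubiquitin ligase Ubr1 to misfolded proteins under stress, rose by 1.37 ± 0.27 from a control range of 5.02 to 13.9 CPM. SPS100, a spore wall protein gene, rose by 1.47 ± 0.31, larger with Ind_B (1.71) than with Ind_Z (1.22) in estimate. It overlaps another annotated gene, the strand setting of the counting is not given, and it was not called without control13 (edgeR adjusted p = 0.0591).

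MGA1, which resembles heat shock transcription factors, rose by 1.28 ± 0.25, YDL012C, a small membrane protein gene, by 1.28 ± 0.23, and MAY24 by 1.27 ± 0.18. MAY24 was at 9.09, 12.5 and 8.03 CPM in the controls, 21.2, 16.8 and 18.2 with Ind_B and 26.4, 35.4 and 32.8 with Ind_Z, and no library overlapped. PRM1, needed for membrane fusion in mating, was at 11.4, 20.2 and 9.63 CPM in the controls, 37.9, 38.8 and 32.4 with Ind_B and 28.4, 39.8 and 33.8 with Ind_Z. It rose by 1.32 ± 0.22, alike with Ind_B (1.37) and Ind_Z (1.27). FUS3, the mating MAP kinase, rose by 0.76 ± 0.13. These were the 2 risers among 30 mating genes, whose median was -0.044, with 0 fallers. HOP1, of the meiotic chromosome axis, was the 1 called among 29 meiosis genes, at 0.66 ± 0.13. Over all genes tested, 1.27% rose and 0.57% fell.

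Regulators of other pathways were among the risers. ADR1, the activator of genes for ethanol and fatty acid use, was at 393, 590.4 and 279 CPM in the controls, 949, 795 and 713 with Ind_B and 985, 983 and 1073 with Ind_Z. It rose by 1.11 ± 0.22 with no overlap, and was the 1 member called in a list of 29 genes for beta-oxidation and the glyoxylate cycle with a median of -0.045. RPN4, the activator of proteasome genes, rose by 0.55 ± 0.12, while 0 of the other 33 genes of the proteasome list were called and its median was -0.051. FIT1, a cell wall mannoprotein that retains iron siderophores, rose by 1.01 ± 0.19, the 1 call among 26 iron uptake genes. The share called over all genes tested was 1.84%. PMC1, the vacuolar calcium pump, and CMK2, a calmodulin-dependent kinase, rose by 0.84 ± 0.15 and 0.72 ± 0.11. The last pair was named after its values were seen.

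Sulfur genes included 3 risers out of 33, where 1.27% of all genes tested rose. The list had 26 positive estimates and a median of 0.25. The median was 0.49 without control13, where 2 were called. MMP1, the permease for S-methylmethionine, was at 94.7, 108 and 88.7 CPM in the controls, 196, 194 and 172 with Ind_B and 124, 153 and 164 with Ind_Z. All antifoam libraries were above the controls, with a change of 0.77 ± 0.12 (edgeR adjusted p = 0.0253). MET3, the ATP sulfurylase that activates sulfate, changed by 0.89 ± 0.17. JLP1, a dioxygenase that frees sulfite from sulfonates, was at 11.7, 19.2 and 10.6 CPM in the controls, 43.0, 41.9 and 47.9 with Ind_B and 14.9, 13.6 and 18.5 with Ind_Z. Its rise came from Ind_B (1.66), the Ind_Z libraries overlapped the controls (0.16), and the difference between the antifoams passed the test (edgeR adjusted p = 0.0361). The Cbf1 site CACGTG was in 7 of 34 sulfur promoters (20.6%) and in 2.83% of all promoters, and in 0 of 77 risers and 0 of 35 fallers.

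Apart from lipid genes, fallers included genes against oxidative stress. YHB1, a flavohemoglobin that breaks down nitric oxide, was at 283, 214 and 154 CPM in the controls, 70.3, 110.1 and 125 with Ind_B and 81.6, 68.6 and 78.8 with Ind_Z. No library overlapped and the change was -1.30 ± 0.20 (edgeR adjusted p = 0.0253). CTT1, the cytosolic catalase, was at 304, 179 and 320.3 CPM in the controls, 90.3, 99.6 and 117 with Ind_B and 106, 155 and 155 with Ind_Z, a change of -1.17 ± 0.19. AHP1, a peroxiredoxin, changed by -0.78 ± 0.14. These 3 were the calls among 31 oxidative stress genes, whose median was -0.28, and -0.058 without control13. CTT1 was also the 1 call among 30 general stress genes, which had a median of 0.065. Over all genes tested, 0.57% fell.

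PBI1 had the lowest p of all genes. It was at 188, 143 and 205 CPM in the controls, 62.8, 81.4 and 82.4 with Ind_B and 63.8, 69.1 and 79.9 with Ind_Z, a change of -1.29 ± 0.14 (edgeR adjusted p = 0.0173), nearly equal with Ind_B (-1.24) and Ind_Z (-1.33). PBI1 was called in 7 of the 9 fits with 1 library left out, more than any other called gene. SCM4, a protein of the mitochondrial outer membrane, was at 131, 95.4 and 163 CPM in the controls, 43.1, 46.4 and 62.2 with Ind_B and 58.2, 65.4 and 55.9 with Ind_Z, a change of -1.23 ± 0.17 without overlap. IZH4 and IZH1, membrane proteins of the family that affects zinc balance, changed by -1.37 ± 0.25 and -0.80 ± 0.13. They were the 2 calls among 28 phosphate and zinc genes, where 0.57% of all genes tested fell. IZH4 was at 34.0, 14.0 and 34.3 CPM in the controls, 10.7, 9.82 and 8.92 with Ind_B and 10.8, 11.3 and 11.8 with Ind_Z, with control12 closest to the antifoam libraries but above all of them.

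Cell wall and nitrogen genes each had 2 fallers, where 0.57% of all genes tested fell. PIR3, a covalently bound wall protein, had the largest fall of all, -1.72 ± 0.33, but its libraries overlapped between the sides. It was -2.83 with Ind_B and -0.61 with Ind_Z, a difference short of the threshold (edgeR adjusted p = 0.0531). PST1, a wall protein induced by damage to the wall, changed by -0.67 ± 0.13. The 38 wall genes had a median of -0.49, and -0.005 without control13. Without control12, 10 of them fell, where 145 of 6149 genes tested did, and without control1, 0 fell. MEP3, an ammonium permease, and PUT2, of proline use, changed by -0.65 ± 0.11 and -0.45 ± 0.10. They were the calls among 33 nitrogen genes, of which 6 fell without control13.

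Respiratory chain genes had low estimates without a call in the fit of all 9 libraries. Of 37 nuclear genes for the respiratory chain and ATP synthase, 34 were negative, with a median of -0.43, or -0.30 without control13. None passed the edgeR test, while 24 had an unadjusted p under 0.05. NDI1, the NADH dehydrogenase of the inner membrane, was nearest at -0.99 ± 0.21 (adjusted p = 0.0515 by edgeR). All 6 antifoam libraries lay below all 3 controls for 11 of the 37, against 2.92% of all genes tested. Without control12, 12 of the 37 fell, where 145 of 6149 genes tested did. Without control13, 1 fell, where 0.777% of all genes tested did. No member was called when any other library was left out. All 7 mitochondrially encoded genes tested were negative, with a median of -0.16 and none called by edgeR. That direction rested on single libraries, since 4 of the 7 were positive without control1, with a median of 0.075, and 2 were positive without Ind_B3, with a median of -0.059.

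Several lists had medians that changed sign with control13. The 135 genes for cytosolic ribosomal proteins had a median of -0.10 with it and 0.31 without it, and none was called in the pooled comparison. The medians with and without control13 were -0.21 and 0.21 for 25 genes of glycolysis and ethanol formation, -0.16 and 0.36 for 10 histone genes, and -0.32 and 0.094 for 40 genes of G1 and S phase. For 63 genes of amino acid synthesis they were -0.12 and 0.19. No member of these lists was called by edgeR with all 9 libraries, while without control13 there were 4 risers among ribosomal proteins, 3 in glycolysis, 2 among histones, 2 in amino acid synthesis, and 4 risers and 1 faller in G1 and S phase. Without control13, 2.23% of all genes tested rose and 0.777% fell. The median of 20 genes of the tricarboxylic acid cycle was -0.33 with control13 and -0.050 without it, with none called by edgeR either way.

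Leaving out control13 added 82 calls, 67 higher and 15 lower, and ended 9. The 9 were ERG10, SRL3, SPS100, JLP1, SFH5, NRD1, SLI1, YBR284W and YDR209C, whose adjusted p without it lay between 0.0520 and 0.0615 in edgeR's test. The genes named next were chosen after these values were seen. Without control13, 3 general stress genes rose, among them TMA10, a ribosome-associated protein gene, at 1.57, against 0.90 with all libraries. Glycolysis had 3 risers, HXK2, the main hexokinase gene, at 0.99, and the dehydrogenase genes TDH2 and TDH3 at 1.29 and 0.71, which are near-identical copies. GPD1 and GPP1, of glycerol synthesis, rose by 0.99 and 0.89.

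HXK2 and GPD1 had larger estimates with Ind_Z. HXK2 was 0.33 with Ind_B and 1.65 with Ind_Z without control13, and GPD1 0.29 and 1.68. HXK2 was at 86.5, 100.5 and 239.8 CPM in the controls, 103, 126 and 127 with Ind_B and 241, 333 and 306 with Ind_Z, with control13 above the other controls. Added fallers included genes of nitrogen use, DAL80 at -1.61, DAL2 at -0.92, DAL7 at -0.58 and the ammonium permease gene MEP2 at -0.70. DAL80, a repressor of nitrogen genes, averaged 16.6 counts per library.

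Of the 40 genes of G1 and S phase, 1 had a positive estimate with all libraries and 24 had one without control13. RNR1, the large subunit of ribonucleotide reductase, was at 275, 312 and 2929 CPM in the controls, 189.5, 164 and 232 with Ind_B and 1609.8, 1603 and 1699 with Ind_Z. Control13 was the highest of all 9 libraries. The pooled estimate was -1.05 with control13, not called (edgeR adjusted p = 0.443), and 0.95 without it (adjusted p = 0.0254), made up of -0.59 with Ind_B and 2.49 with Ind_Z. The S-phase cyclin gene CLB6 went from -2.36 to 0.97 and the cohesin gene MCD1 from -1.52 to 0.85. CDC6, which loads the replicative helicase, was negative both ways, -1.05 and -0.51, and was called only in the second fit of these 2.

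Other lists had few or no calls, where 1.84% of all genes tested were called. Phospholipid synthesis, trehalose and glycogen, osmotic stress, endoplasmic reticulum folding, ribosome biogenesis and autophagy had 0 called genes by edgeR, with medians from -0.33 to 0.11. Without control13, osmotic stress had 2 risers, phospholipid synthesis and endoplasmic reticulum folding 1 each, and autophagy 1 faller. The median of trehalose and glycogen was then -0.075, and that of ribosome biogenesis went from 0.001 to -0.025. Without control12, where 325 of 6149 genes tested were called, trehalose and glycogen had 4 fallers, phospholipid synthesis 1 faller and osmotic stress 1 riser. Endoplasmic reticulum folding, ribosome biogenesis and autophagy had 0 calls in that fit. Sphingolipid synthesis had 1 riser, RSB1, and pleiotropic drug resistance 2, RSB1 and RPN4, with a median of 0.10 that was -0.008 without control13. The 21 hypoxic genes had 2 risers, UPC2 and ECM22, and 1 faller, YHB1. Their median was -0.41 with 16 negative estimates, and 0.012 without control13, with 10 negative estimates and 3 risers.

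**Figure D5:**
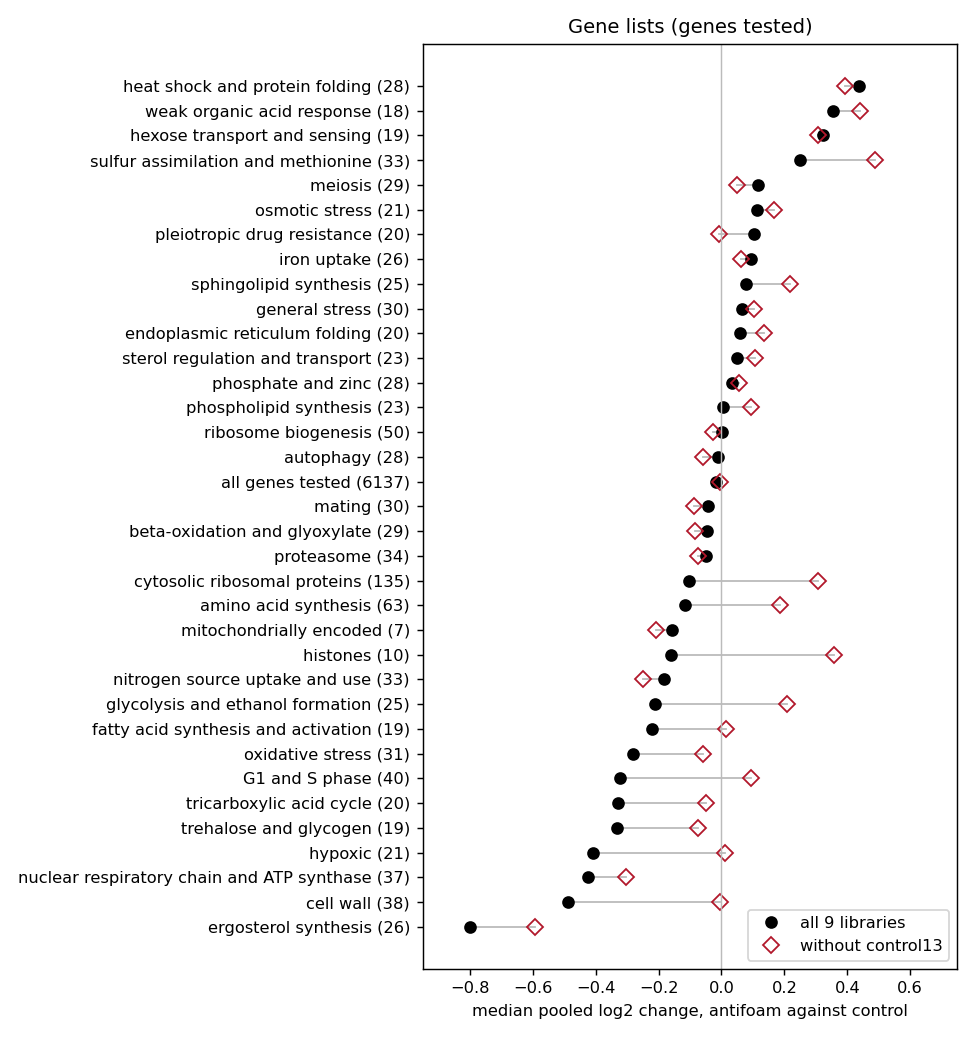
Points give the median pooled log2 fold change of each of the 34 gene lists, with all 9 libraries and without control13. The number beside each list gives its genes tested. Ergosterol synthesis has the lowest median, -0.80, and all genes tested have -0.02.

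The 8 called genes whose change differed between the antifoams included 6 higher in Ind_Z than in Ind_B. YDL023C was at 6.56, 7.40 and 4.42 CPM in the controls, 9.71, 7.54 and 7.79 with Ind_B and 21.3, 27.8 and 23.8 with Ind_Z, a pooled change of 1.17 ± 0.18 made up of 0.40 with Ind_B and 1.93 with Ind_Z. Its row matched no entry of the gene table, so overlap with other genes was not checked. ISF1 was at 29.9, 45.7 and 39.9 CPM in the controls, 52.2, 54.8 and 47.8 with Ind_B and 97.0, 132 and 137 with Ind_Z, 0.43 with Ind_B and 1.66 with Ind_Z. For both, all Ind_Z libraries were above all Ind_B libraries. MPF1, NCE102, YNL194C and ECL1 also rose more with Ind_Z, by 0.80 to 1.28 on the log2 scale. The other two were JLP1, higher with Ind_B, and HES1, lower with Ind_Z. For these genes the pooled value is an average of unequal changes.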

How the data were processed

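The values are raw counts that the authors deposited as 1 table of 6357 features in 9 columns. TopHat2 2.0.9 and HTSeq 0.6.0 are named, with no role, in the submitters' processing notes. What is not given in the sources used here includes strand setting, annotation and genome build, so overlapping genes are uncertain. RNA was purified with TRIzol and depleted of ribosomal RNA, per the labels' protocols. Columns control12 and control13 match no title and were placed in the control group by name.

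Counts were fitted in R 4.3.3 with edgeR 4.0.16 (filterByExpr, 6137 genes, TMM scaling, 1 mean per group, 6 residual degrees of freedom, quasi-likelihood F-test, weight 0.5 for each antifoam). CPM used TMM-scaled library sizes. The members, the 34 gene lists and the tests were chosen with earlier results of these data known. Named were the 12 largest rises and falls averaging 50 or more counts with no overlap between sides, up to 3 called genes per list or its lowest p, and up to 4 called genes that differed between antifoams. Further list members, and genes said to be named after their values were seen, lie outside that rule. Names and promoters came from RefSeq R64 (5848 rows matched, 509 not). Near-identical copies shared 95% identity over 50% of the length (BLAST+ 2.17.0). Promoters of BTN2, CUR1, FES1, SSA4 and ERG2 were added to the rule's 6 after their values were seen. DESeq2 1.42.0 and limma 3.58.1 were alternatives.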

Additional observations from a re-analysis of the deposited data

Results flagged for a closer look

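For 6 named genes the change differed between the antifoams in edgeR's test of Ind_Z against Ind_B (26 of 6137 genes, 0.424%). The log2 difference, Ind_Z minus Ind_B, was 1.53 for YDL023C, 1.24 for ISF1 and 0.804 for MPF1, each higher with both antifoams and more so with Ind_Z. It was -1.49 for JLP1, whose Ind_Z libraries overlapped the controls, and -1.001 for HES1, which fell further with Ind_Z. RPL28, a ribosomal protein gene, was not called in the pooled comparison (0.38 ± 0.12) and differed by 0.991 between the antifoams (edgeR adjusted p = 0.0361). It was at 105, 102 and 98.1 CPM in the controls, 102, 105 and 75.4 with Ind_B and 168, 197 and 195 with Ind_Z. The adjusted p of the other 5 differences was 0.0361 to 0.0499 in edgeR's test. The gap on the log2 scale from 1 antifoam library to its nearest other was divided by the range of all 6. For no named gene did this exceed Dixon's limit of 0.625, and a difference between the antifoams widens that range. Ind_Z2 of HXT2, at 468 CPM, was the highest of 6 libraries whose other values ran from 102 to 189 CPM.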

How the results depend on the processing

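Of the 113 called genes, all kept their direction in every alternative that tested them. The alternatives reuse the libraries that gave the calls, so the kept directions are a description. Counts of calls stayed within 1.5 times of 113 with RLE scaling (108), upper-quartile scaling (108), no filter on low counts (110), a minimum mean of 50 counts (108), and without 36 mitochondrial and most abundant rows (107). DESeq2 called 391 genes, 238 higher and 153 lower, with 389 of them moving the same way with both antifoams and 55 passing with each antifoam. Limma-voom with quality weights called 813, 513 higher and 300 lower, with 782 the same way and 4 passing with each. A fit with 1 mean over the 6 antifoam libraries called 1 gene, 0 higher and 1 lower, and this gene is among the 113 (edgeR, 827 at an unadjusted p under 0.05). That fit gives no separate change for each antifoam. A test against a 1.5-fold change called 0 (edgeR, 172 at an unadjusted p under 0.05). DESeq2 and limma-voom were not run against that fold. With 1 library left out, the calls ranged from 0 to 325, rises from 0 to 180, falls from 0 to 145, calls moving the same way from 0 to 325 and genes passing with each antifoam from 0 to 32. The cause was not tested. Of the 49 called named genes, 49 missed the threshold without control1 and 48 without Ind_B1, Ind_Z2 or Ind_Z3. No paired analysis was possible because control12 and control13 carry no replicate number of the labels. The libraries held 5900571 to 18245935 counts, and the part of depth in these limits was not tested.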

Other observations

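Some of the genes that rose lay next to each other on the chromosomes. Among 77 risers in the RefSeq table, 18 (23.4%) had another riser as the neighbouring gene, where 146 of 5733 tested genes (2.55%) had a riser as neighbour. Among the 35 fallers 0 had a faller as neighbour, where 70 tested genes (1.22%) did. The 10 pairs of risers were 4 divergent, 3 tandem and 3 convergent. They were YGR210C with ZPR1, ZPR1 with SLI1, SLI1 with RTA1, NIS1 with APJ1, YDR215C with ADR1, URN1 with MAY24, MMS4 with FES1, MGA1 with RIE1, SFH5 with ROQ1, and YDL012C with GRX6. YGR210C, ZPR1, SLI1 and RTA1 form 1 run, so their pairs share members. Order is that of assembly R64 and was not checked in CAT-1, and the part that unstranded counting could have in it was not tested.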
